A study of Mus musculus with 20 samples.

Results

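The 10 genes described here encode CSF1R ligands and chemokines, with receptors for most of them: Csf1, Il34, Csf1r, Ccl2, Ccl7, Ccr2, Cx3cl1, Cx3cr1, Cxcl10 and Cxcl12. They were chosen by symbol under the heading of neuron to macrophage signals and receptors, and were found by mapping the Ensembl identifiers of the count table to gene symbols. The set leaves out Cxcr3 and Cxcr4, which encode receptors of CXCL10 and CXCL12. All 10 were present among 78258 identifiers, of which 51487 had a symbol, and all 10 passed the filter on low counts. Their messenger RNA was assayed in dorsal root ganglia of the lumbar spine (DRG), where the cell bodies of sensory neurons lie next to the spinal cord. The 10 animals were males, 5 controls and 5 conditional knockouts (cKO) of Ahr, which encodes the aryl hydrocarbon receptor, a ligand-activated transcription factor. The cKO mice were Ahr fl/fl and carried Thy1CRE-ERT2/EYFP, a Cre recombinase that tamoxifen activates and a yellow fluorescent protein, both driven by the Thy1 promoter, which is active in neurons. The control mice were Ahr f/f or f/+, with no Cre named, so the 2 genotypes differ by the transgene as well as by the deletion, and these cannot be told apart. All mice, controls included, received tamoxifen at 100 mg/kg daily for 5 days at 17 weeks of age. The sciatic nerve was cut 4 weeks later, and 1 day after the cut the L4 to L6 ganglia of both sides were collected. Each mouse gave 1 contralateral (uncut side) and 1 ipsilateral (cut side) library, which makes 4 groups of 5, and every library is labelled as 1 day after injury.

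CSF1 and IL-34 are the ligands of CSF1R, the tyrosine kinase receptor on which macrophages and microglia depend for survival and proliferation. CCL2 and CCL7 are chemokines read by CCR2 on monocytes, CX3CL1 is a membrane-bound chemokine read by CX3CR1 on macrophages, CXCL10 is an interferon-induced chemokine read by CXCR3 on T cells, and CXCL12 is a chemokine read by CXCR4. Injured sensory neurons are known to make CSF1, which reaches microglia of the spinal cord, and CCL2. In bulk ganglia the cell that made a transcript is not recorded, and fewer cells of a type cannot be told apart from less RNA per cell.

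Levels are given as CPM, the counts divided by the library total in M (mega) after TMM scaling, and differences as log2 fold changes from edgeR's quasi-likelihood test on 28564 genes, with a standard error (SE) and a Benjamini-Hochberg adjusted p over all of them. The threshold for calling a gene was an adjusted p of 0.05. Libraries held 76.2 to 118.5 M counts. Ahr, the targeted gene, averaged 24.2 CPM on the uncut side of controls and 20.4 CPM on that of cKO mice, a log2 difference of -0.25 that edgeR did not call (adjusted p 0.103) and DESeq2 did (-0.24, adjusted p 0.0216). It was also called by edgeR without cKO mouse H99 (-0.25, adjusted p 0.0353). On the cut side Ahr averaged 34.4 CPM in control and 31.9 CPM in cKO mice, a smaller log2 difference of -0.11 that was not called (edgeR adjusted p 1.0; -0.16 to -0.07 when 1 mouse was left out). Thy1 was called higher in cKO on both sides (contralateral means of 641.5 and 1093 CPM). Atf3, a transcription factor induced by axon injury, rose from 11.4 to 426.5 CPM (control means) and, among cKO means, from 9.24 to 416.9 CPM, and no ipsilateral library overlapped a contralateral one. Between genotypes contralaterally, DESeq2 called Atf3 lower in cKO (-0.29, adjusted p 0.0304) and edgeR did not. With edgeR and 1 mouse left out the difference was -0.35 to -0.22. The summed level of 15 sensory neuron markers lay between 9950 and 11710 CPM in every library, which fits the labelled tissue. In the contralateral control libraries, mouse H96 stood apart from the other mice for several members, and values without that mouse are given for the control injury responses of 5 members (Ccl2, Ccl7, Ccr2, Cx3cr1 and Cxcl10) and for the contralateral difference between genotypes.

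Csf1, Ccl7, Ccl2 and Cxcl12 were the members with a called response to the lesion in at least 1 genotype, and each of these calls was an increase. In control mice 3 of 10 members were called (Csf1, Ccl7, Cxcl12), against 29.9% of all tested genes. All 3 were higher ipsilaterally, against 13.8% of tested genes called in that direction. In cKO mice 3 of 10 were called (Csf1, Ccl7, Ccl2), against a background of 31.3% called in either direction and 16.2% called higher. The share of members called was thus near the share of all genes called. The ranges of the ipsilateral and contralateral libraries did not overlap for 2 members in control (Csf1, Cxcl12; background 23.6%) and for 3 in cKO (Csf1, Ccl2, Ccl7; background 20.2%). The median log2 fold change of the 10 members was 0.47 in control and 0.09 in cKO, where the medians of all tested genes were near 0 (-0.0047 and -0.0296).

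**Figure D1:**
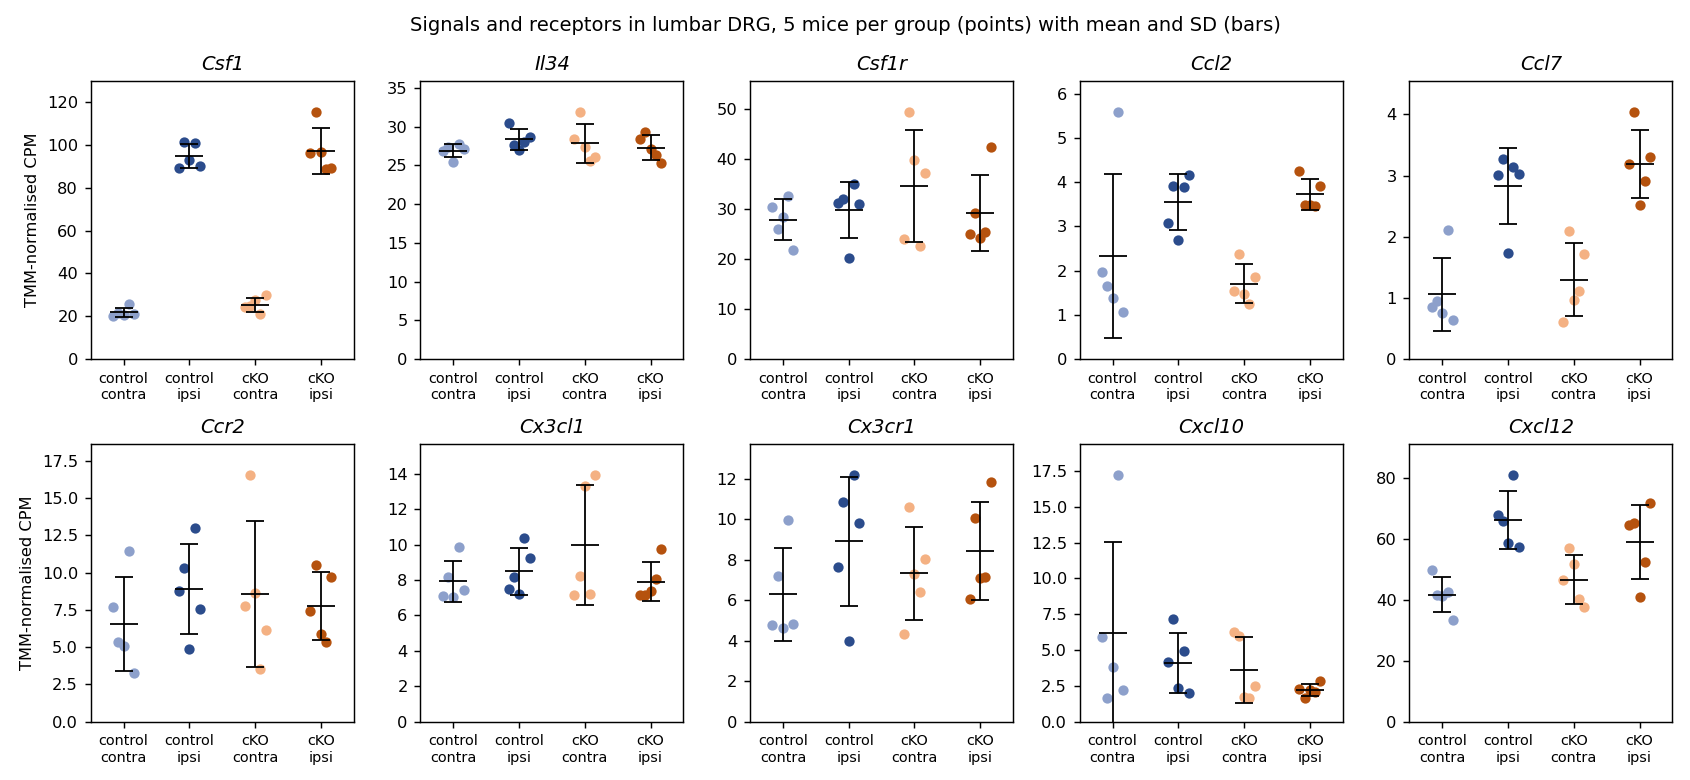
TMM-normalised CPM of the 10 members (y axis, from 0) in each library, in 4 groups of 5 mice on the x axis (contra, contralateral; ipsi, ipsilateral). Points are libraries and bars are the mean and SD, with the lower Cxcl10 bar of the control contralateral group ending below the axis; Csf1 separates the sides in both genotypes, and 1 control contralateral library stands high for Ccl2, Ccl7 and Cxcl10.

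Csf1 showed the steepest response of the members. In control mice H62, H63, H65, H96 and H97 its contralateral levels were 19.9, 21.4, 20.6, 25.6 and 21.1 CPM, and its ipsilateral levels were 89.0, 101, 93.0, 101 and 90.3 CPM. In cKO mice H61, H64, H95, H99 and H100 the contralateral levels were 24.2, 24.7, 27.4, 21.1 and 29.8 CPM, and the ipsilateral levels were 96.01, 115, 96.9, 88.9 and 89.1 CPM. Every ipsilateral library was above every contralateral library, and the genotypes overlapped on both sides. The lesion raised Csf1 by a log2 fold change of 2.13 (SE 0.09, adjusted p 1.13e-12 with edgeR) in control, a 4.36-fold change, and of 1.93 (SE 0.09, adjusted p 3.19e-12) in cKO, a 3.82-fold change. All 10 mice had more Csf1 on the cut side, with per-mouse log2 differences of 1.97 to 2.24 in control and 1.58 to 2.22 in cKO. The response itself did not pass the test of a difference between genotypes (interaction -0.19, 95% interval -0.43 to 0.05, edgeR adjusted p 0.607). The contralateral level was 21.7 ± 2.24 CPM in control and 25.44 ± 3.298 CPM in cKO (SD, n = 5), with a log2 difference of 0.23 (SE 0.09), an unadjusted edgeR p of 0.0200 and an adjusted p of 0.201. Without control mouse H96 it was 0.30 (adjusted p 0.202), and without cKO mouse H99, whose contralateral library had the lowest Csf1 of its group, it was called (0.29, adjusted p 0.0364). Leaving out H99 raised the number of all genes called in this comparison from 21 to 3326 of 28818 tested, or 11.5%.

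The 250 bases before the start of Csf1 are shown because Csf1 carries the clearest lesion response of the members. They come from the RefSeq promoter table, build GRCm38.p6, chr3:107760470-107760719 on the minus strand, beside the gene at chr3:107741048-107760469. Capitals mark the match to a form of the NF-kB motif, GGGANTTTC, on the opposite strand, 153 bases before the start.
Csf1: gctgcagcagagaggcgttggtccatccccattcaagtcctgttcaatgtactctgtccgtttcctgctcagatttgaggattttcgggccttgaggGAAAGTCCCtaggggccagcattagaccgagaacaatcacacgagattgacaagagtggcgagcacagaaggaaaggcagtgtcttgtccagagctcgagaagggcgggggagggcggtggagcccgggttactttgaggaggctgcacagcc
A match to this form on either strand was present in 1.11% of 32851 promoter windows of the same 300 bases (250 before and 50 after a start). No match to the AP-1 motif TGANTCA, the CRE motif TGACGTCA or the core GCGTG bound by AhR with ARNT was in the Csf1 window. A match is a description of the sequence, and binding was not measured.

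Il34, the other CSF1R ligand, stayed between 25.3 and 31.9 CPM in all 20 libraries. Its contralateral levels in control mice, in the same order, were 26.8, 27.4, 25.5, 27.7 and 27.1 CPM, and its ipsilateral levels were 30.5, 27.7, 27.0, 28.0 and 28.7 CPM. In cKO mice the contralateral levels were 28.4, 31.9, 27.4, 25.5 and 26.1 CPM and the ipsilateral levels 28.5, 29.3, 27.1, 26.3 and 25.3 CPM. The 4 groups overlapped, with log2 fold changes on injury of 0.08 (95% interval -0.03 to 0.18, edgeR adjusted p 0.319) in control and -0.03 (-0.13 to 0.07, adjusted p 0.723) in cKO. These intervals are the narrowest among the members. By mouse, Il34 was higher on the cut side in 5 of 5 controls and in 2 of 5 cKO mice.

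Per kilobase of merged exons, the order of the CSF1R ligands changed sides with the lesion. Contralateral Il34 had 13.7 ± 0.438 CPM per kb in control and 14.2 ± 1.29 in cKO (SD, n = 5), against 4.12 ± 0.424 and 4.82 ± 0.624 CPM per kb for Csf1. Ipsilateral Csf1 had 18.0 ± 1.09 CPM per kb in control and 18.4 ± 2.05 in cKO, against 14.5 ± 0.683 and 13.9 ± 0.818 for Il34. The ratio of Csf1 to Il34 was 0.275 to 0.423 in the 10 contralateral libraries and 1.083 to 1.46 in the 10 ipsilateral libraries, so the sides did not overlap. This order between the genes rests on exon length: divided by the whole gene span, as in the deposited FPKM, contralateral control Csf1 was 1.12 and Il34 0.420 CPM per kb. The change of the ratio with the lesion does not depend on the length used.

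**Figure D2:**
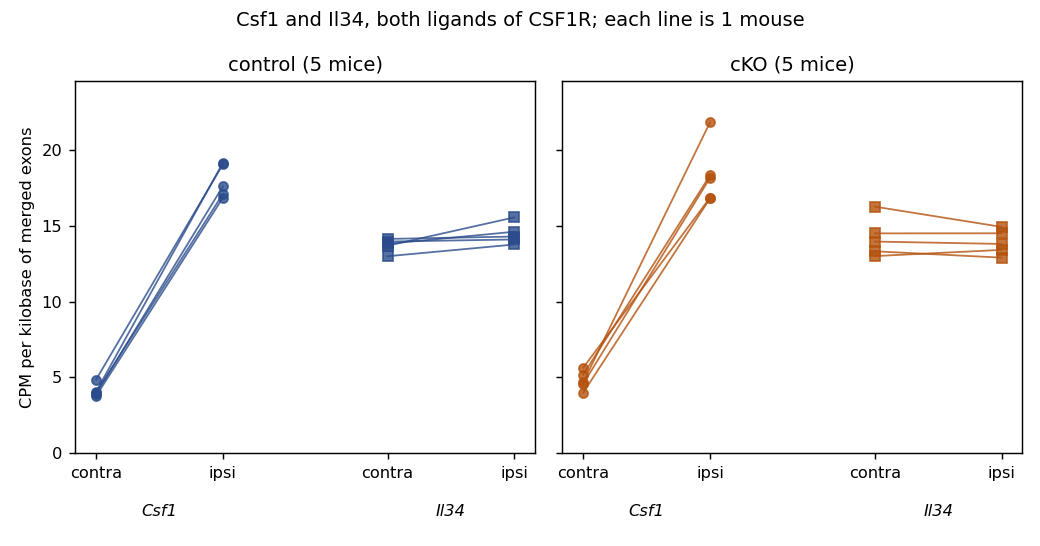
Csf1 (circles) and Il34 (squares) in CPM per kilobase of merged exons (y axis, from 0) in contralateral and ipsilateral ganglia (x axis), 1 line per mouse, 5 control mice on the left and 5 cKO mice on the right. Csf1 lies below Il34 on the uncut side and above it on the cut side in all 10 mice.

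Csf1r, their shared receptor, was not called in any comparison. Contralateral levels were 30.4, 26.1, 28.4, 32.6 and 21.9 CPM in control and 24.0, 49.5, 39.8, 22.7 and 37.3 CPM in cKO mice. Ipsilateral levels were 31.2, 32.1, 20.3, 35.0 and 31.0 CPM in control and 25.0, 29.2, 24.3, 25.4 and 42.6 CPM in cKO mice. The groups overlapped throughout, and the cKO contralateral libraries spanned more than the control ones. The log2 fold change on injury was 0.10 (95% interval -0.32 to 0.52, edgeR adjusted p 0.785) in control and -0.24 (-0.66 to 0.18, adjusted p 0.434) in cKO. In GENCODE release M21, 873 exonic bases of Csf1r overlap Hmgxb3 on the other strand, and the strand setting of the counting is not given in the sources used here, so some of these counts could belong to Hmgxb3. Exons of Il34, Cx3cr1 and Cxcl10 overlap genes on the other strand by 133 bases or fewer per partner.

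Csf1r varied with macrophage markers from library to library. The summed level of 13 macrophage markers was 123.7 to 218.6 CPM in control contralateral, 141.7 to 256.0 in control ipsilateral, 113.8 to 316.5 in cKO contralateral and 171.7 to 270.3 CPM in cKO ipsilateral libraries. The cKO contralateral library of mouse H64 had the highest sum and also the highest Csf1r and Ccr2. In control mice 3 of the 13 markers were called higher after the lesion: Mrc1, the mannose receptor (log2 fold change 0.79, edgeR adjusted p 0.0283), Fcgr1, an Fc receptor (1.10, adjusted p 0.0160), and Cd14, a co-receptor for lipopolysaccharide (0.64, adjusted p 0.0355). In cKO mice edgeR called 0 of the 13, with 0 at an unadjusted p under 0.05 and 0 by DESeq2, and the interaction was not called for any of them (0 of 13 at an unadjusted p under 0.05 and 0 by DESeq2). None of the 13 markers was at 0 in any library. Of 5 monocyte and 7 neutrophil markers edgeR called 0 in both injury comparisons, where 1 monocyte marker in control was under an unadjusted p of 0.05 and was called by DESeq2. Of all tested genes, 38.6% in control and 40.6% in cKO were under that unadjusted p on injury, and DESeq2 called 30.4% and 32.3%. By edgeR 29.9% and 31.3% were called, with 13.8% and 16.2% called higher. The part of macrophage number in the results for Csf1r, Ccr2 and Cx3cr1 was not tested. Across the 20 libraries the genes most like Csf1r, among 17310 genes with a symbol and a mean of at least 1 CPM, were Gpr34 (Pearson r 0.91), Adgre1 (0.90) and Unc93b1 (0.90). Those most like Csf1 were Smim3 (0.996), Klf6 (0.994) and Tnfrsf12a (0.994). These correlations pool 4 groups and share the contrast of sides, and are a description.

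Ccl7 was higher on the cut side than on the uncut side in all 10 mice, and Ccl2 in 9 of 10. Contralateral Ccl2 in control mice was 1.97, 1.65, 1.37, 5.59 and 1.07 CPM, and ipsilateral Ccl2 was 3.08, 3.91, 2.69, 3.88 and 4.16 CPM. The contralateral library of H96, at 5.59 CPM, was above all 5 ipsilateral libraries, while the other 4 contralateral libraries were below all of them. In cKO mice contralateral Ccl2 was 1.55, 2.38, 1.47, 1.24 and 1.86 CPM and ipsilateral Ccl2 was 4.26, 3.48, 3.48, 3.46 and 3.91 CPM, with no overlap. Ccl2 rose in cKO (log2 fold change 1.13, SE 0.34, edgeR adjusted p 0.0156) and was higher on the cut side in 5 of 5 mice. In control the log2 fold change was 0.59 (SE 0.33, adjusted p 0.206), with 4 of 5 mice higher on the cut side. Without mouse H96 it was 1.198 with an adjusted p of 0.000163, and with mouse as a random effect in limma-voom it was 0.78 (adjusted p 0.0311). With edgeR and without H97 it was 0.36 and not called. The cKO call was lost without mouse H61 (adjusted p 0.0633), H95 (0.0556) or H99 (0.0507), and under a test against a 1.2-fold change (0.0720), with values of 1.05 to 1.13 on the log2 scale. The genotypes' responses were not called different (interaction 0.54, 95% interval -0.39 to 1.46, adjusted p 0.714), and without H96 that difference was -0.06.

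Ccl7 passed the test in both genotypes. Its contralateral levels in control mice were 0.85, 0.96, 0.75, 2.11 and 0.64 CPM and its ipsilateral levels were 3.004, 3.27, 1.73, 3.13 and 3.03 CPM. In cKO mice it had 0.60, 2.09, 0.97, 1.11 and 1.73 CPM contralaterally and 3.18, 4.04, 2.52, 2.90 and 3.297 CPM ipsilaterally. The sides overlapped in control only through H96 contralaterally and H65 ipsilaterally, and did not overlap in cKO. Ccl7 rose by a log2 fold change of 1.40 (SE 0.33, edgeR adjusted p 0.00277) in control and of 1.30 (SE 0.32, adjusted p 0.00459) in cKO, in 10 of 10 mice. Leaving out any 1 mouse gave values of 1.26 to 1.80 in control and 1.12 to 1.44 in cKO. Without H96 the control value was 1.80 (adjusted p 0.000281). The interaction was -0.10 (95% interval -0.997 to 0.79, adjusted p 0.958), and -0.50 without H96 (adjusted p 0.759).

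Ccr2, the receptor of both chemokines, did not pass the test. Its contralateral levels were 7.67, 5.33, 5.07, 11.4 and 3.25 CPM in control and 7.76, 16.6, 8.64, 3.55 and 6.14 CPM in cKO mice. Ipsilateral levels were 8.73, 10.3, 4.88, 13.01 and 7.55 CPM in control and 7.44, 10.5, 5.88, 5.35 and 9.69 CPM in cKO mice. All groups overlapped, with log2 fold changes on injury of 0.44 (95% interval -0.32 to 1.195, edgeR adjusted p 0.455) and -0.13 (-0.89 to 0.62, adjusted p 0.840). Mouse H96 was highest among the controls on both sides, and without it the control value was 0.57 (adjusted p 0.365).

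**Figure D3:**
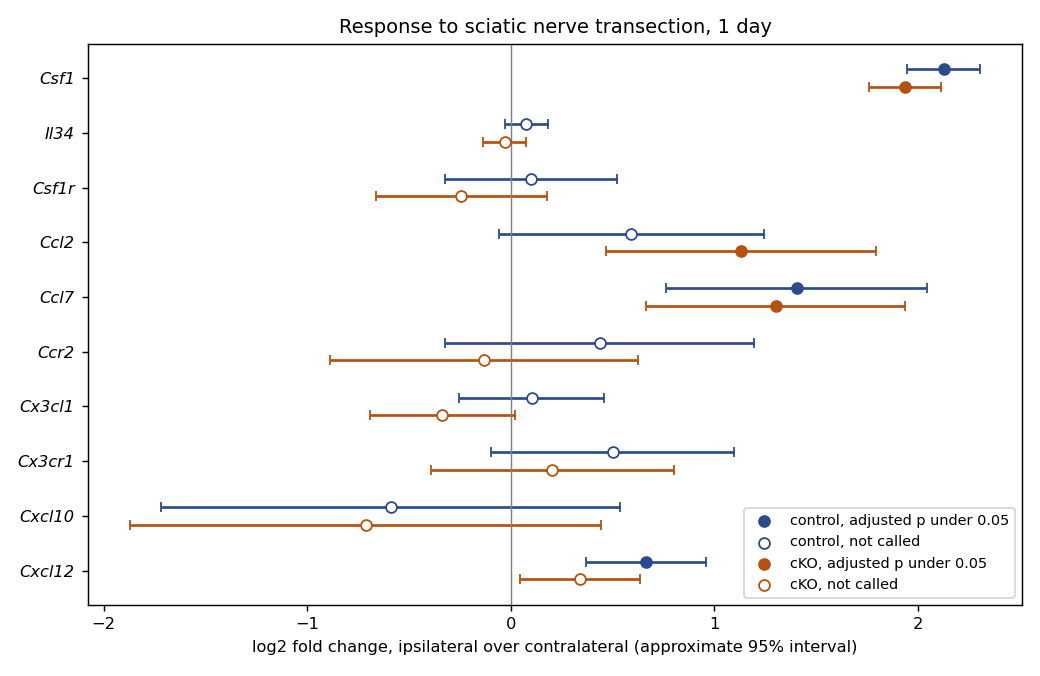
Log2 fold change of ipsilateral over contralateral ganglia (x axis) for the 10 members (y axis) in control (blue) and cKO mice (orange), 5 mice each, with approximate 95% intervals. Filled points were called at an adjusted p under 0.05; Csf1 and Ccl7 were called in both genotypes, Cxcl12 in control and Ccl2 in cKO.

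Cx3cl1, which neurons carry on their surface, and its receptor Cx3cr1 were not called in the fit of group means. Cx3cl1 had 7.08, 8.17, 7.06, 9.84 and 7.44 CPM contralaterally and 7.49, 8.18, 7.19, 10.4 and 9.27 CPM ipsilaterally in control mice. In cKO mice it had 7.16, 8.21, 13.3, 7.21 and 13.9 CPM contralaterally and 7.14, 7.18, 7.40, 8.04 and 9.76 CPM ipsilaterally. H95 and H100 stood above the other contralateral cKO libraries, and all groups overlapped. The log2 fold change of Cx3cl1 on injury was 0.10 (SE 0.18, edgeR adjusted p 0.735) in control, with 5 of 5 mice higher on the cut side. In cKO it was -0.34 (SE 0.18, adjusted p 0.174), with 4 of 5 mice lower on the cut side. Its interaction was -0.44 (95% interval -0.94 to 0.06, edgeR adjusted p 0.572). Cx3cr1 had 4.80, 7.20, 4.65, 9.96 and 4.85 CPM contralaterally and 7.66, 10.9, 4.01, 12.2 and 9.80 CPM ipsilaterally in control mice. Its cKO levels were 4.35, 10.6, 7.28, 6.40 and 8.03 CPM contralaterally and 6.04, 10.1, 7.10, 7.16 and 11.9 CPM ipsilaterally. The sides overlapped in both genotypes, although 4 of 5 control mice were higher on the cut side. The log2 fold change in control was 0.50 (SE 0.30, adjusted p 0.251) and in cKO 0.20 (SE 0.30, adjusted p 0.668). With mouse as a replicate block the control response was called (0.48, adjusted p 0.0348), and in the fit of group means without H96 it was 0.60 (adjusted p 0.199).

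Cxcl12 responded to the lesion in control mice. Contralateral levels were 49.7, 41.7, 41.4, 42.7 and 33.4 CPM in control and 46.6, 57.0, 51.8, 40.2 and 37.7 CPM in cKO mice. Ipsilateral levels were 67.8, 66.0, 58.6, 81.1 and 57.4 CPM in control and 64.5, 65.2, 41.0, 52.4 and 71.8 CPM in cKO mice. The sides did not overlap in control and overlapped in cKO, where H95 was lower on the cut side. Cxcl12 rose in control by a log2 fold change of 0.66 (SE 0.15, edgeR adjusted p 0.00243), in 5 of 5 mice. Beside this, 2 of 7 endothelial markers were called higher in control (Emcn and Flt1), where 13.8% of all tested genes were called higher, and the summed level of the 7 was 114.5 to 151.9 CPM contralaterally and 130.2 to 181.1 CPM ipsilaterally. In cKO edgeR called 0 of the 7, with 0 at an unadjusted p under 0.05 and 0 by DESeq2, at sums of 130.9 to 182.5 and 143.9 to 164.0 CPM. The summed fibroblast markers averaged 836.4 and 1028 CPM on the 2 sides in control and 1298 and 959.4 CPM in cKO (contralateral, then ipsilateral), with 0 of 6 called on injury by edgeR and, in each genotype, 1 at an unadjusted p under 0.05 and 1 by DESeq2. Satellite glia sums were 1533 to 1698 and 1720 to 1950 CPM on the 2 sides in control, and 1520 to 1859 and 1651 to 1854 CPM in cKO. Mural cell sums were 226.7 to 352.4 and 281.5 to 310.8 CPM in control, and 243.9 to 270.7 and 283.1 to 328.2 CPM in cKO. No marker of these lists was at 0 in any library, and the part of any of these cell types in Cxcl12 was not tested. For Cxcl12 in cKO the value was 0.34 (SE 0.15, adjusted p 0.1002), with 4 of 5 mice higher, and it was called without H95 (0.49, adjusted p 0.0223) and was 0.19 and not called without H100. The interaction, -0.33 (95% interval -0.74 to 0.09, adjusted p 0.609), was not called, so a difference between genotypes was not shown. Of its receptors, Cxcr4 had group means of 14.8 to 16.6 CPM with log2 fold changes on injury of -0.04 and -0.17 (adjusted p 0.817 and 0.202). The scavenging receptor Ackr3 had means of 10.4 and 11.9 CPM in control and 18.5 and 13.2 CPM in cKO (contralateral, then ipsilateral) and was not called; its contralateral difference between genotypes, 0.83 (adjusted p 0.140), had H64, H95 and H100 at 21.8 to 25.4 CPM and H61 and H99 at 10.3 to 10.4 CPM. The same 3 cKO libraries had the higher sums of 6 fibroblast markers, 1383 to 1795 CPM, against 811.0 to 853.8 CPM in H61 and H99. Contralaterally between genotypes edgeR called 0 of the 6 fibroblast markers, with 5 at an unadjusted p under 0.05 and 2 called by DESeq2, beside 17.5% and 3.64% of all tested genes. The part of fibroblast number in these values was not tested.

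Cxcl10 varied widely among replicates in 3 of the 4 groups. Its contralateral levels were 5.89, 1.65, 3.84, 17.2 and 2.18 CPM in control and 6.29, 5.97, 1.73, 1.63 and 2.52 CPM in cKO mice. Ipsilateral levels were 4.14, 7.20, 2.39, 4.92 and 2.01 CPM in control and 2.29, 1.66, 2.21, 2.06 and 2.86 CPM in cKO mice. The H96 contralateral library was the highest of the 20, and all groups overlapped. The log2 fold change on injury was -0.59 (95% interval -1.72 to 0.54, edgeR adjusted p 0.505) in control and -0.71 (-1.87 to 0.44, adjusted p 0.400) in cKO, and the control value was 0.21 without H96. The cKO value was -0.37 without H64 and -0.93 without H100, and was not called in either case. Per mouse, the log2 difference between sides ran from -1.81 in H96 to 2.11 in H63 among controls. Its receptor Cxcr3, a marker of activated T cells, was low, with group means of 0.278 to 0.550 CPM, and was not called.

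The 250 bases before the start of Cxcl10 are shown because its values turn on 1 library and its window holds a match to the core bound by the targeted receptor. They are RefSeq, GRCm38.p6, chr5:92348890-92349139 on the minus strand, beside the gene at chr5:92346638-92348889. Capitals mark, in order, the core bound by AhR with ARNT (GCGTG, on the opposite strand, -222), a form of the interferon-stimulated response element (GAAANNGAA, -213) and the AP-1 motif (TGANTCA, -74), each counted from the start.
Cxcl10: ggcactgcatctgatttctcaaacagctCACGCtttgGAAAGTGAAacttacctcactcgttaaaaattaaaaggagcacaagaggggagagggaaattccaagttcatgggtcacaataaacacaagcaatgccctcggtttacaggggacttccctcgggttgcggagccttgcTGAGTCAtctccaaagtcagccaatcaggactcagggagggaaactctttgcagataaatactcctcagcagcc
The AhR core was present in 32.39% of the 32851 windows, the interferon form in 8.56% and AP-1 in 7.81%, on either strand. Of the 6 members in the promoter table, 2 held the AhR core (Cxcl10 and Cx3cr1), 2 the interferon form (Cxcl10 and Ccr2), 1 the NF-kB form GGGANTTTC (Csf1) and 1 AP-1 (Cxcl10), and Cxcl12 and Cx3cl1 held none of the motifs searched. Other forms of the NF-kB motif were not searched. The Cxcl10 window, with gggaaattcc and gggacttccc unmarked, thus cannot be said to lack NF-kB sites.

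The contralateral library of H96 was high for several inflammatory signals at once. It had the highest contralateral control level of 9 of the 10 members, the exception being Cxcl12. The lead was narrow for Il34 (27.7 CPM, against 25.5 to 27.4 CPM in the others). Cxcl9, an interferon-induced chemokine, was at 20.7 CPM there, against 0.367 to 10.4 CPM in the other control contralateral libraries. The T cell chemokine Ccl5 was at 5.54 CPM, against 0.478 to 2.05 CPM. The summed level of 10 lymphocyte markers was 14.0 CPM there and 3.29 to 10.1 CPM in the other 4, while Atf3 was 12.2 CPM there and 9.27 to 13.8 CPM in the others. Its macrophage marker sum was 214.4 CPM, next to 218.6 CPM in H62 and 123.7 to 154.4 CPM in the other 3. The part of lymphocytes and macrophages in the chemokine values of this library was not tested. The genes most like Ccl2 over the 20 libraries were Oasl2 (Pearson r 0.93), Sema4a (0.92) and Shisa2 (0.89), again as a description.

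**Figure D4:**
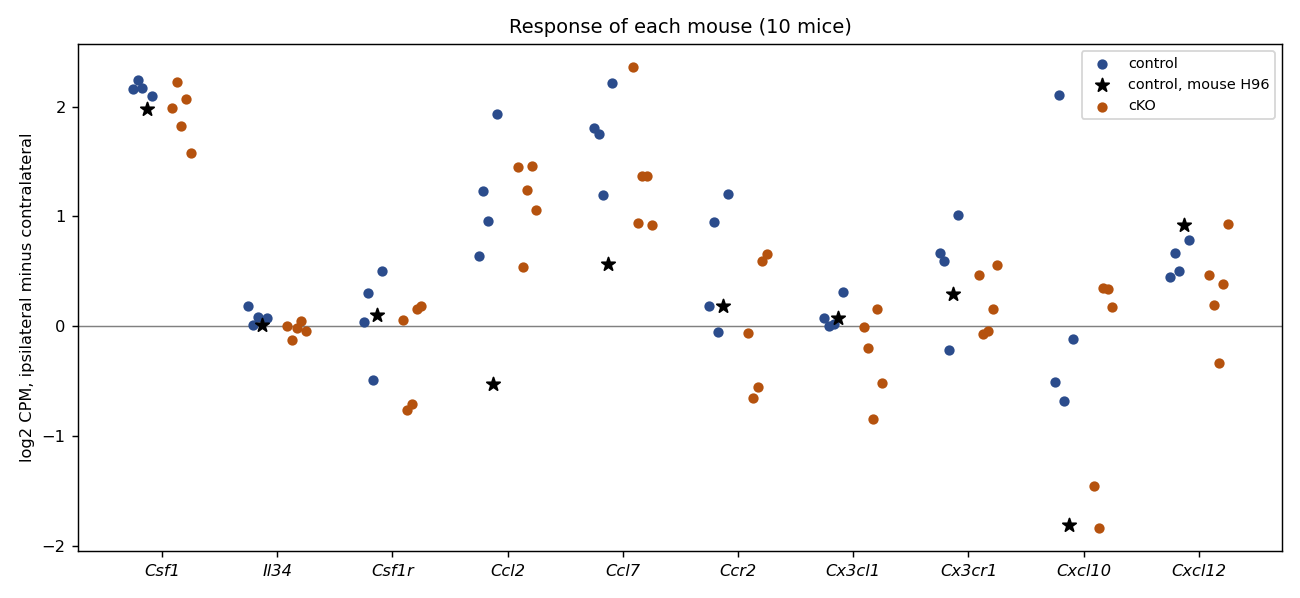
Log2 CPM of the ipsilateral minus the contralateral library (y axis) of each mouse for the 10 members (x axis), with 5 control (blue, H96 as a black star) and 5 cKO mice (orange). Every mouse lies above 0 for Csf1 and Ccl7, and H96 is the lowest control mouse for Ccl2, Ccl7 and Cxcl10.

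Between genotypes, none of the 10 members was called on either side. Contralaterally edgeR called 0 of 10, with 1 (Csf1) at an unadjusted p under 0.05 and 0 by DESeq2. Of all tested genes, edgeR called 0.0735% in that comparison, 17.5% were at an unadjusted p under 0.05 and DESeq2 called 3.64%. Ipsilaterally it called 0 of 10, with 0 at an unadjusted p under 0.05 and 0 by DESeq2, against backgrounds of 0.007%, 2.36% and 0.0105%. For the interaction it again called 0 of 10, with 0 at an unadjusted p under 0.05 and 0 by DESeq2. The interaction backgrounds were 0% of 28564 genes for edgeR, 9.8% at an unadjusted p under 0.05 and 0.0385% for DESeq2. The ipsilateral log2 differences of the members ranged from -0.90 for Cxcl10 (95% interval -2.05 to 0.26) to 0.17 for Ccl7 (-0.44 to 0.78). For Csf1 the ipsilateral interval, -0.13 to 0.21, was narrow, whereas for Cxcl10, Ccr2, Ccl2, Ccl7 and Cx3cr1 the intervals reach beyond 0.5 on the log2 scale in at least 1 direction. The median member difference was 0.22 contralaterally and -0.07 ipsilaterally, beside medians of all genes of -0.013 and 0.0002. The contralateral values depended on the mice included. Without control mouse H96 the median member difference was 0.34 (all genes -0.0056) and all 10 differences were above 0. Then 3 members were at an unadjusted edgeR p under 0.05, beside 16.1% of all genes. These were Csf1 (0.30), Ccl7 (0.71, against 0.27 with all mice) and Cx3cl1 (0.43, against 0.33), and edgeR called none of the 10 at an adjusted p under 0.05. Ccr2 went from 0.38 to 0.68 and Cx3cr1 from 0.22 to 0.45, while Ccl2 went from -0.47 to 0.17 and Cxcl10 from -0.77 to 0.10. As H96 had the highest contralateral control level for most members, its omission raises most of these differences. Other omissions lowered them: without cKO mouse H64, Ccr2 was at -0.01 and Il34 at -0.0024. The lowest values with 1 mouse left out were 0.04 for Ccl7, 0.05 for Cx3cr1 and 0.08 for Cxcl12. They were 0.15 for Csf1r, 0.16 for Csf1 and 0.18 for Cx3cl1. Ipsilaterally the median without H96 was 0.006. In the interaction 9 of 10 members were below 0 with all mice, the exception being Ccl2, at a median of -0.24 (all genes 0.0112), and without H96 all 10 were below 0 at a median of -0.37 (all genes 0.0024).

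Summed markers of several other cell types averaged higher in contralateral cKO than control libraries, beside these values. With all mice, the contralateral difference was above 0 for 12 of 13 macrophage, 5 of 5 monocyte, 7 of 7 neutrophil, 6 of 6 fibroblast and 5 of 5 erythroid markers. The summed macrophage markers averaged 169.7 CPM in control and 203.7 CPM in cKO, and the fibroblast markers 836.4 and 1298 CPM. Summed monocyte markers were 15.8 to 38.9 CPM in control and 13.4 to 59.9 CPM in cKO, and neutrophil markers 46.4 to 163.2 and 27.2 to 231.6 CPM. The erythroid sums, which reflect blood, were 310.8 to 710.7 and 271.6 to 833.2 CPM. The groups overlapped for each of the 5 lists, and H99 had the lowest and H64 the highest sum of each among contralateral cKO libraries. Of these markers edgeR called 0 between genotypes, with 1 monocyte and 5 fibroblast markers at an unadjusted p under 0.05 and 1 and 2 called by DESeq2, beside 17.5% and 3.64% of all tested genes. In the interaction 0 of the markers of these 5 lists were above 0. Lymphocyte markers went the other way contralaterally, with 1 of 10 above 0 and mean sums of 7.39 CPM in control and 5.49 CPM in cKO. Above 0 were also 3 of 15 sensory neuron, 7 of 7 endothelial, 4 of 7 Schwann cell, 4 of 6 satellite glia and 4 of 6 mural cell markers. For these 6 lists the interaction was above 0 for 5 of 10, 9 of 15, 0 of 7, 0 of 7, 1 of 6 and 2 of 6, in the same order. None of the markers was at 0 in any library, and the part of these cell types in the members' genotype values was not tested.

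Among 67 other genes of the colony-stimulating factor and chemokine systems, 56 were tested. In control mice 8 were called higher and 4 lower after the lesion, and in cKO mice 5 higher and 5 lower, beside the 29.9% and 31.3% of all tested genes called. In the comparisons of genotype and of the interaction edgeR called 0 of 56, while an unadjusted p under 0.05 was reached by 13 contralaterally, 1 ipsilaterally and 6 in the interaction, beside 17.5%, 2.36% and 9.8% of all tested genes. DESeq2 called 3 of them contralaterally, 2 of which were atypical receptors, beside 3.64% of all tested genes, and 0 in the other comparisons.

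The 7 tested genes around the colony-stimulating factors had a median log2 fold change of 0.28 in control, with 2 called higher, and 0.22 in cKO, with 3 called higher. Sdc1, which encodes the heparan sulfate proteoglycan syndecan-1, had the largest called change in both genotypes. It went from 41.8 to 53.0 CPM contralaterally to 83.2 to 97.5 CPM ipsilaterally in control libraries, and from 37.9 to 42.1 CPM to 72.8 to 101.6 CPM in cKO. The sides did not overlap in either genotype, and the log2 fold changes were 0.98 (SE 0.08, edgeR adjusted p 4.59e-09) and 1.15 (SE 0.08, adjusted p 3.63e-10). Syndecan-1 and PTPRZ1 are reported binding partners of IL-34. Ptprz1 rose in cKO (0.26, adjusted p 0.0294, lost without H64 or H100, adjusted p up to 0.133) and had 0.18 (adjusted p 0.143) in control. Csf2ra, a subunit of the GM-CSF receptor, was called higher in control (0.23, adjusted p 0.0372) and in cKO (0.22, adjusted p 0.0462). The control call was lost without H63, H65, H97 or H61, with adjusted p of up to 0.163. The cKO call, nearer the threshold, was not followed with mice left out. Tyrobp, the signalling adaptor of macrophages, was at 6.96 to 9.13 CPM in group means and was not called.

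Among 17 other CC chemokines tested, 1 was called higher and 2 lower in each genotype, at medians of -0.08 in control and 0.04 in cKO. Ccl12, a further CCR2 ligand beside Ccl2 and Ccl7 in the mouse, was the one that rose in both, by 1.49 (SE 0.40, edgeR adjusted p 0.00747) in control and 1.22 (SE 0.40, adjusted p 0.0251) in cKO. Its cKO call was lost without H61, H95, H99 or H100 (adjusted p up to 0.0879). Ccl17 (-2.50, adjusted p 0.0235) and Ccl1 (-1.04, adjusted p 0.000791) fell in control, at contralateral means of 0.583 and 0.863 CPM. H96 had 2.05 CPM of Ccl17 contralaterally against 0.110 to 0.391 CPM in the other 4, and without H96 the log2 fold change was -1.25 (adjusted p 0.204). The Ccl17 call was also lost without H62 (adjusted p 0.0563), with mouse as a replicate block (0.0608) and under 6 further settings (0.0651 to 0.151). Ccl27a fell in cKO (-0.26, adjusted p 0.00251), though near-identical copies of this gene could share its reads. Of 10 other CXC and XC chemokines, Cxcl14 rose in control (1.22, adjusted p 0.00498; 0.922 to 2.16 CPM in means), and edgeR called 0 of 10 in cKO, with 1 (Cxcl14) at an unadjusted p under 0.05 and 0 by DESeq2.

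Of 12 other chemokine receptors tested, Ccr1, a receptor of CCL7 and other CC chemokines, rose in control (1.199, SE 0.37, edgeR adjusted p 0.0188). Its call was lost without H63, H96 or H97 (adjusted p up to 0.0925), and in cKO its value was 0.65 (adjusted p 0.192). Ccr3 was called in control (1.70, adjusted p 0.00281) at means of only 0.0810 and 0.267 CPM. Ccr10 fell in both, by 0.40 and 0.49 on the log2 scale (adjusted p 0.0262 and 0.00659), and the control call was lost without H63, H65, H96 or H97 (adjusted p up to 0.195).

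The atypical receptors, which take up chemokines without the usual signalling, moved in different directions. Ackr4 fell in control (-0.21, edgeR adjusted p 0.0105) and in cKO (-0.45, adjusted p 3.86e-06); the control call was lost without H62 or H63 (adjusted p up to 0.0748). Ackr2 fell in cKO (-1.11, adjusted p 0.00576), from 0.729 to 0.334 CPM. Ackr1 rose in cKO (0.26, adjusted p 0.00161), with 361 of its exonic bases shared with Cadm3 on the same strand. Ccrl2 rose in control (0.69, adjusted p 0.0146), a call lost without H62 (adjusted p 0.0652). Of 5 genes that process chemokines, Adam17, a protease that releases CX3CL1 from the membrane, rose in control (0.25, adjusted p 0.0233) and lost its call without H62 or H63 (adjusted p up to 0.0885). Its relative Adam10 had 0.12 and 0.13 in the genotypes (adjusted p 0.0709 and 0.0565).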

How the data were processed

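RNA of lumbar DRG was sequenced as stranded mRNA libraries with paired 150 bp reads, per the labels' protocols. The authors deposited whole-number exonic counts per gene, without normalization, and FPKM per gene. The deposited FPKM divided each gene by its whole span, introns included, for nearly all genes listed here, so levels per kilobase used merged exons of GENCODE release M21. HISAT2, Picard, mm10 and mm39 are named per the submitters' processing notes, with no role given; other settings, the strand setting among them, are not given in the sources used here, and printed coordinates are those of the annotation, not of the files. Of count values from 1 to 10, 65.3% were even, so read pairs seem to have been counted by mate. There are then fewer fragments than counts, and depth covers counting error only.

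Counts of all 20 libraries were fitted together, with 1 mean per group, in R 4.3.3 with edgeR 4.0.16 (TMM, filterByExpr with a minimum count of 10 and a minimum total of 15, robust quasi-likelihood F-test). SE is the unshrunken log2 fold change over the root of F, and approximate 95% intervals are 1.96 SE. The code was tested on simulated data. Between replicate libraries the chi-square over its degrees of freedom was 5.31 to 58.3, so the spread between mice set the precision. The contralateral and ipsilateral library of a mouse come from 1 animal, which the labels number; their deviations from group means correlated at -0.0546 to 0.361 (median 0.186; over 0.1 in 7 of 10 mice). Alternatives were DESeq2 1.42.0, size factors by RLE, a filter at a mean of 1 CPM or none, limma 3.58.1 on log2 FPKM (pseudocounts 1 and 0.1), mouse as a replicate block or as a random effect, only the libraries compared, the range of mouse numbers, a test against a 1.2-fold change, and omission of each mouse.

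The members, gene lists and tests were chosen with earlier results of these data known. Besides all members, the 2 highest and 2 lowest called genes of each pathway list with at least 0.5 CPM are named per injury comparison, with the known receptors of the members, of which 1 is not reported here. Values that single out H96 were chosen after they were seen. A treatment field of the labels names spinal cord injury while the protocol describes sciatic nerve transection, which was followed; 1 title holds a shortened mouse number, and the library name was used.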

Additional observations from a re-analysis of the deposited data

Results flagged for a closer look

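In 7 of 40 groups of 5 values, the highest or lowest library was separated from the others by more than Dixon's 95% critical value of 0.71, given as the gap over the range; chance flags about 1 in 20 groups. The contralateral library of control mouse H96 was the high value for Csf1 (25.6 CPM, gap 0.739), Ccl2 (5.59 CPM, gap 0.802), Ccl7 (2.11 CPM, gap 0.783) and Cxcl10 (17.2 CPM, gap 0.728). The ipsilateral library of control mouse H65 was the low value for Csf1r (20.3 CPM, gap 0.731) and Ccl7 (1.73 CPM, gap 0.829), and its macrophage marker sum, 141.7 CPM, was also the lowest of its group. The ipsilateral library of cKO mouse H100 was the high value for Csf1r (42.6 CPM, gap 0.732), with the highest macrophage marker sum of its group, 270.3 CPM. The part of macrophage or lymphocyte number in these values was not tested.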

How the results depend on the processing

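Over 11 settings that kept all mice, 517 of 520 log2 fold changes of members kept their direction and their side of the threshold, 2 were gained and 1 was lost, and none reversed. Leaving out each of 10 mice gave 500 values, of which 472 kept both, 3 lost and 3 gained the call and 22 reversed, all of the 22 in comparisons where the member was not called. The replicate block gained Cx3cr1 in control and changed no other member's call. The number of members called contralaterally between genotypes was 0 to 1 when a mouse was left out; the 1 was Csf1 without H99, where 11.5% of all tested genes were called.

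For the comparisons with a reversal, leaving out 1 mouse gave the following log2 ranges. On injury, Cxcl10 in control had -1.11 to 0.21 and Ccr2 in cKO -0.32 to 0.12. For cKO against control contralaterally, Il34 had -0.0024 to 0.0833, Ccl2 -0.63 to 0.17, Ccr2 -0.01 to 0.68 and Cxcl10 -1.07 to 0.10. Ipsilaterally, Csf1 had -0.0332 to 0.068, Csf1r -0.204 to 0.0323, Ccl2 -0.0096 to 0.14, Cx3cr1 -0.258 to 0.0612 and Atf3 -0.0719 to 0.0075. For the interaction, Ccl2 had -0.0637 to 0.771, Ccl7 -0.497 to 0.0436 and Cxcl10 -0.92 to 0.40. Among other responses to injury that were not called, leaving out 1 mouse gave -0.39 to -0.08 for Csf1r, -0.43 to -0.19 for Cx3cl1 and 0.09 to 0.30 for Cx3cr1 in cKO, and 0.03 to 0.23 for Csf1r in control. The cause was not tested.

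The test against a 1.2-fold change ended the calls of Csf2ra, Ccl17, Ccr1, Ccr10, Ccrl2, Ackr4 and Adam17 in control and of Ccl2, Ptprz1, Ccl12, Ccl27a, Ccr10 and Ackr1 in cKO, which is the stricter threshold's own effect. The calls of Csf2ra in cKO, Ccr3 in control and the cell type markers were not followed through these settings. Apart from Ccl17, the calls of Ackr4 in control and of Ptprz1 and Ccl12 in cKO were also lost without the filter, those of Csf2ra and Adam17 in control with limma on FPKM at pseudocounts 1 and 0.1, that of Ptprz1 in cKO at pseudocount 1, and that of Csf2ra in control with only the libraries compared, all with adjusted p of 0.0505 to 0.0847. The number of all genes called between genotypes contralaterally was 21 with edgeR, 1041 with DESeq2, and 3326 without cKO mouse H99. With 5 mice per group, the wide intervals of Cxcl10, Ccr2, Ccl2, Ccl7 and Cx3cr1 limit what can be said of a genotype difference.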
